A study of Rattus norvegicus with 6 samples.

Results

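The genes examined were 10 members of the interleukin-1 (IL-1) family, taken as every array probe whose gene name equals one of their symbols. They comprise 4 agonist ligands (Il1a, Il1b, Il18 and Il33), 3 inhibitors (the receptor antagonist Il1rn, the decoy receptor Il1r2 and the binding protein Il18bp) and 3 receptor chains (Il1r1, Il1rap and Il1rl1). They are carried by 16 of the 41012 probes on the array, which name 16417 genes through the reference table. Levels were measured in synovial tissue of the hind ankle joints from male rats, 8 weeks of age, on 3 arrays from animals given triptolide (TP) and 3 from animals with adjuvant arthritis and saline (AA). Both groups received 0.1 ml of complete Freund's adjuvant intraperitoneally on each of 18 days, and triptolide, a compound from thunder god vine, was dosed at 0.4 mg/kg on each of 14 days. No healthy group was analysed here, and the labels number the samples of a group without saying that they came from separate animals, so p-values here rest on the spread among arrays of a group, some of which may be technical.

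IL-1 alpha and IL-1 beta bind the receptor encoded by Il1r1, which then recruits the accessory chain encoded by Il1rap and signals through the adaptor MyD88 to NF-kB. The antagonist encoded by Il1rn occupies the same receptor without recruiting the accessory chain, and the receptor encoded by Il1r2 binds IL-1 but has no signalling domain. IL-18 is held in check by the secreted protein encoded by Il18bp, and IL-33 acts through the receptor ST2, the product of Il1rl1, which is made both as a membrane receptor and as a soluble decoy. In inflamed joints IL-1 is known as a driver of matrix breakdown by synovial fibroblasts and chondrocytes.

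The probes that carry the main contrasts are shown by the first 30 of their 60 bases, to identify which transcripts were read. Each is written in the sense of the transcript, and no base is capitalised because none was singled out. The Il1b probe was printed in 10 copies per array, and the 2 Il1rl1 probes name transcript variant 1 and transcript variant 2.
Il1b: gctgaaaatgaagagtttcatattgtgtgg
Il18bp: tcccaactaagcagtacccaacattggatg
Il33: ccaacatatccgtaacaggtctccttctca
Il1rl1 variant 1: tttttaattcacctgttgctattcaaatca
Il1rl1 variant 2: tggattgaggttgctctgttctggagagat
The file headers give positions on rn4, a rat genome build. The Il1b probe lies at chr3:116964465-116964524 on the minus strand and the Il18bp probe at chr1:159472813-159472872 on the minus strand. The Il33 probe lies at chr1:233685259-233685318 on the plus strand. The Il1rl1 probes are on the plus strand, variant 1 at chr9:39617225-39617284 and variant 2 downstream of it at chr9:39619275-39620742, a span that exceeds 60 bases because that probe crosses an exon junction. Exon parts such as UTRs were not analysed here.

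Levels below are log2 intensity minus the log2 75th percentile of the same array, so that 0 is that percentile. The 75th percentile itself ranged from 270.1 to 447.9 intensity units, between 59.6% and 65.1% of the 43379 non-control spots were well above background, and no spot was saturated. Slide 1 held AA 1 to 3 and TP 1, and slide 2 held TP 2 and 3, so slide and group were largely confounded. Any value given within slide 1 therefore sets TP 1 alone against the AA arrays. Slide as a blocking factor returns that same difference and is no separate check. Of the tissue markers, 11 of 11 for synovial fibroblasts and 11 of 12 for macrophages passed the detection filter described next. Skeletal muscle markers stood 8.31 above their 6-array mean on AA 2, and smooth muscle and nerve markers stood 2.74 and 2.96 above theirs on TP 2. As these are bulk samples, fewer cells of a type and less RNA per cell cannot be told apart in any value below.

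A probe was tested if 3 or more of the 6 arrays showed it well above background, which held for 9 of the 10 genes. By limma's moderated test, 0 of the 9 passed 0.05 after Benjamini-Hochberg adjustment across the 25783 probes tested, 0% of which passed. At an unadjusted p under 0.05 there were 2 of the 9, Il1rl1 lower and Il18bp higher with triptolide, against 3.24% of all tested probes. The groups did not overlap for 3 of the 9, Il18bp and Il33 above and Il1rl1 below, where 4.77% of all tested probes lay wholly above and 3.87% wholly below, 8.64% in either direction. That count was 5 without TP 2, where Il1b and Il1rn also lay wholly above but 28% of all tested probes did not overlap. It was 2 under other scalings, Il33 overlapping with normexp or quantile normalization and Il18bp with median centring. The TP mean was the higher for 7 of the 9 genes, against 53.8% of all tested probes, and for 5 of the 9 with normexp background correction. The median difference of the 9 was 0.094, beside 0.023 for all tested probes.

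**Figure D1:**
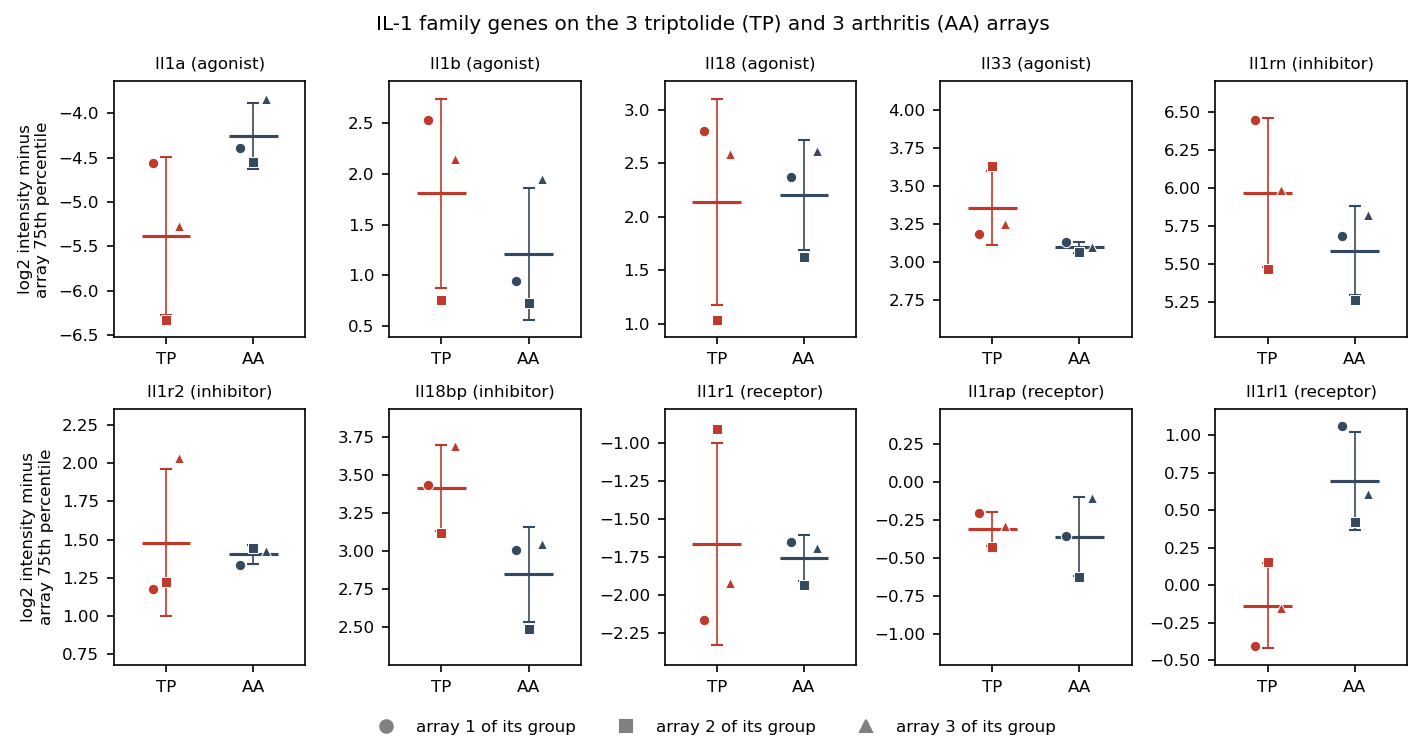
Level of each gene's brightest probe (log2 intensity minus the array's 75th percentile) on the 3 triptolide (TP) and 3 arthritis (AA) arrays. Symbols mark the array within its group, bars the mean and whiskers the SD. Il18bp and Il33 have no overlap with TP above AA, Il1rl1 none with TP below, and Il1b spans 0.76 to 2.52 in TP and 0.73 to 1.95 in AA. Il1a, near background and not tested, also lies wholly below, by -4.56 in TP 1 against -4.54 in AA 2.

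Among the agonists, Il1b, the IL-1 form secreted mainly by myeloid cells, stood at 2.52, 0.76 and 2.14 in TP 1 to 3, against 0.95, 0.73 and 1.95 in AA 1 to 3. Each group held both high and low arrays, and the groups overlapped over most of their range. The difference was 0.60 (SE 0.54, limma adjusted p = 0.994), with a 95% interval of -0.70 to 1.90. The copies of the probe on one array had an SD of 0.030 to 0.096, smaller than the SD between arrays of 0.93 in TP and 0.65 in AA (n = 3 each). A second Il1b probe, upstream in the transcript, gave 0.58 (SE 0.60) and followed the first with r = 0.997 over the 6 arrays. The value rested on single arrays, at 0.24 without TP 1 and 1.12 without TP 2. It was 1.31 within slide 1, where TP 1 is the only TP array, and hence also with slide as a blocking factor.

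Il18, an agonist made as a precursor that caspase-1 cleaves, stood at 2.80, 1.04 and 2.59 in TP 1 to 3, against 2.37, 1.63 and 2.62 in AA 1 to 3. TP 2 was the lowest array and TP 1 the highest, so the TP range enclosed the AA range. The difference was -0.065 (SE 0.52, limma adjusted p = 0.996), with a 95% interval of -1.32 to 1.19, and it was 0.49 without TP 2. The second probe gave -0.018 (SE 0.64) and followed the first with r = 0.996.

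Il33, an alarmin stored in the nuclei of stromal and endothelial cells, stood at 3.18, 3.63 and 3.25 in TP 1 to 3, against 3.13, 3.06 and 3.09 in AA 1 to 3. All TP arrays lay above all AA arrays, with AA tightly grouped (SD 0.035, n = 3) and TP 2 apart from the other TP arrays. The difference was 0.26 (SE 0.17, limma adjusted p = 0.994), with a 95% interval of -0.16 to 0.67. A dimmer second probe gave 0.40 (SE 0.21) with overlapping groups, its TP 3 value of -0.23 lying below the AA 1 value of -0.11. Without TP 2 the difference of the brighter probe was 0.12, and within slide 1 it was 0.088.

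Il1a, which encodes the cell-associated IL-1 form, was at the edge of detection. Its spot read 11.4, 4.25 and 11.6 intensity units in TP 1 to 3, none well above background, against 13.5, 12.6 and 22.5 units in AA 1 to 3, of which AA 1 and AA 3 were well above background. On the relative scale its means were -5.39 ± 0.89 in TP and -4.26 ± 0.37 in AA (SD, n = 3 each), and the highest TP array (-4.56) was beside the lowest AA array (-4.54). With any TP value under the lowest signal well above background on its array raised to that signal, Il1a was 1.81-fold lower with triptolide. This is no firm bound, because the values of AA 2 and of every TP array were not well above background. No test was made, as the probe passed on 2 arrays.

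Among the inhibitors, Il18bp was the one set apart between groups. It stood at 3.43, 3.12 and 3.69 in TP 1 to 3, against 3.01, 2.49 and 3.05 in AA 1 to 3, and every TP array was above every AA array. The lowest TP and highest AA arrays, TP 2 and AA 3, were 3.12 and 3.05. The difference of 0.57 (SE 0.23) is 1.48-fold, with a 95% interval of 0.0020 to 1.13 and an unadjusted p of 0.0494 by limma, which became 0.994 after adjustment over all probes. It was 0.58 within slide 1, and 0.39 to 0.71 with any 1 array left out.

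Il1rn, the receptor antagonist, stood at 6.45, 5.47 and 5.99 in TP 1 to 3, against 5.68, 5.26 and 5.82 in AA 1 to 3. TP 1 and TP 3 were above all AA arrays and TP 2 fell among them. The difference was 0.38 (SE 0.29, limma adjusted p = 0.994; 95% interval -0.33 to 1.09), and a second probe, which crosses an exon junction, gave 0.48 (SE 0.26). It was 0.14 without TP 1, 0.22 without AA 2 and 0.63 without TP 2, and 0.86 within slide 1.

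Il1r2, the decoy receptor, stood at 1.18, 1.22 and 2.04 in TP 1 to 3, against 1.33, 1.45 and 1.43 in AA 1 to 3. TP 3 was above all AA arrays, and TP 1 and TP 2 were below all of them. The difference of 0.076 (SE 0.26; limma adjusted p = 0.995) therefore averaged opposite positions, and its value without TP 3 was -0.20.

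Among the receptor chains, the probe for Il1rl1 variant 1 had the smallest unadjusted p of the 9 genes. It stood at -0.41, 0.15 and -0.15 in TP 1 to 3, against 1.06, 0.42 and 0.61 in AA 1 to 3. Every TP array was below every AA array, with 0.15 in TP 2 and 0.42 in AA 2 the closest pair. The difference was -0.83 (SE 0.24), which is 1.78-fold lower with triptolide, with a 95% interval of -1.41 to -0.26 and an unadjusted p of 0.0117 by limma that became 0.994 after adjustment. With any 1 array left out it was -0.98 to -0.65, within slide 1 it was -1.11, and under quantile normalization it was -0.82.

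The probe for Il1rl1 variant 2 did not follow it. It stood at -4.48, -3.72 and -3.80 in TP 1 to 3, against -3.95, -4.84 and -4.33 in AA 1 to 3, was well above background on 2 of the 3 arrays of each group, and differed by 0.37 (SE 0.31; limma adjusted p = 0.994). The 2 probes correlated at r = 0.021 over the 6 arrays, whereas the probe pairs of Il1b, Il18, Il33, Il1rn and Il1r1 did so at 0.75 to 1.00. The within-array contrast of variant 1 against variant 2, taken relative to its 6-array mean, was -0.40, -0.59 and -0.82 in TP 1 to 3, against 0.54, 0.79 and 0.47 in AA 1 to 3. These do not overlap, and the difference of -1.20 gave p = 0.1 by a two-sided exact permutation test, the smallest p that 3 against 3 arrays allow, in a contrast chosen after its values were seen. With normexp background correction it was -0.72, with variant 2 at -0.028, and within slide 1 variant 2 stood at -0.11. Variant 2 alone differed by 0.14 without AA 2 and 0.61 without TP 1, and the mean of both probes gave -0.23. The files do not say which variant encodes the soluble form.

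Mast cells are known to carry ST2, and of 7 mast cell markers 6 had lower TP means, with a median difference of -0.23. Over all tested genes, 55.8% had a higher TP mean. The remaining marker, Kit, went the other way, at 0.74 (SE 0.29, limma unadjusted p = 0.0397, adjusted p = 0.994). It was the only 1 of the 7 whose groups did not overlap, with TP above. Their mean deviation ran from -0.38 to 0.31 in TP and from -0.22 to 0.28 in AA, so the groups overlapped, unlike those of Il1rl1 variant 1. All 7 passed the detection filter, and the part of mast cell content in the Il1rl1 value was not tested.

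Il1r1, the signalling receptor for IL-1, stood at -2.16, -0.91 and -1.92 in TP 1 to 3, against -1.65, -1.93 and -1.69 in AA 1 to 3. TP 2 was the highest of the 6 arrays, and TP 1 the lowest. The difference of 0.094 (SE 0.34; limma adjusted p = 0.995) was -0.28 without TP 2, and the second probe gave 0.15 (SE 0.31). Il1rap, the shared accessory chain, had the smallest difference, with levels at -0.20, -0.43 and -0.29 in TP 1 to 3 against -0.35, -0.62 and -0.10 in AA 1 to 3. Its difference was 0.053 (SE 0.18) with a 95% interval of -0.39 to 0.50, and it was -0.080 without AA 2.

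**Figure D2:**
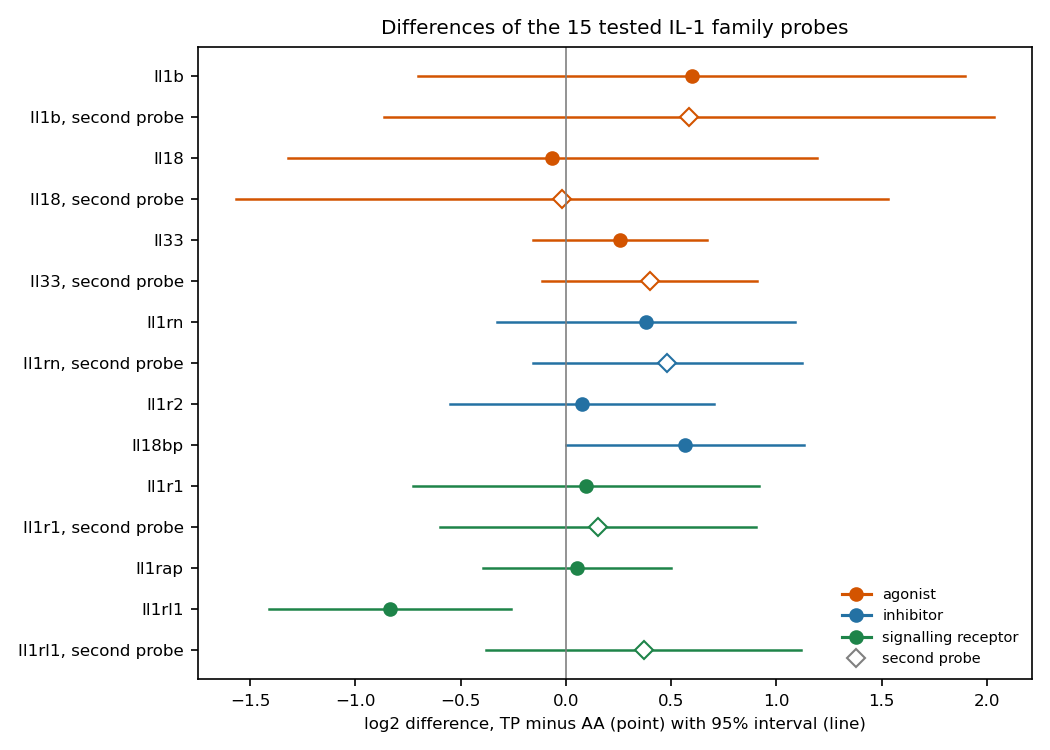
Log2 difference (TP minus AA) with its 95% interval for the 15 tested probes, coloured by role; filled circles are each gene's brightest probe and open diamonds its second. The intervals of Il18bp (0.0020 to 1.13) and Il1rl1 variant 1 (-1.41 to -0.26) exclude 0 before adjustment, and the second Il1rl1 probe lies on the other side of 0.

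Agonists and inhibitors were set against each other on each array by the mean deviation of their genes from their own 6-array means, which compares no probe level with another. The 3 agonists that were tested stood at 0.53, -0.49 and 0.36 in TP 1 to 3, against -0.15, -0.49 and 0.25 in AA 1 to 3. The 3 inhibitors stood at 0.24, -0.18 and 0.46 in TP 1 to 3, against -0.11, -0.38 and -0.018 in AA 1 to 3. Both classes were highest on TP 1 and TP 3 and low on AA 2 and TP 2. Agonists without Il1a minus inhibitors averaged -0.039 ± 0.31 in TP and 0.039 ± 0.20 in AA (SD, n = 3 each). That difference of -0.078 is smaller than the SD of either group, but it depends on leaving out Il1a, which was near background. With Il1a counted, the 4 agonists stood at 0.46, -0.75 and 0.16 in TP 1 to 3, against -0.0055, -0.30 and 0.44 in AA 1 to 3. Their difference between groups was then -0.085, against 0.26 without Il1a and 0.34 for the inhibitors.

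By ligand and its own inhibitor, Il1b against Il1rn stood at 0.34, -0.44 and 0.42 in TP 1 to 3, against -0.46, -0.26 and 0.40 in AA 1 to 3, with overlapping groups. Il18 against Il18bp stood at 0.32, -1.13 and -0.14 in TP 1 to 3, against 0.32, 0.097 and 0.53 in AA 1 to 3, also with overlap. Il33 was also set against Il1rl1 variant 1, which is counted here as a receptor chain and not as an inhibitor. That contrast stood at 0.65, 0.53 and 0.46 in TP 1 to 3, against -0.87, -0.30 and -0.46 in AA 1 to 3. The lack of overlap follows from the separate values of those genes given above.

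Pairs of members varied together over the 6 arrays to differing degrees. Il1b correlated with Il1rn at r = 0.925, with Il18 at 0.829 and with Il1rap at 0.791, while Il33 correlated with Il1r1 at 0.806 and with Il1b at -0.254. The r largest in size of all pairs was -0.931, between Il33 and Il1a, whose signal was near background. These are descriptions over 6 arrays that share their slides and tissue makeup. The neutrophil markers, 6 of 12 of them tested, ranked the arrays by their mean as Il1b did. That mean was 0.64, -0.33 and 0.35 in TP 1 to 3, against -0.33, -0.47 and 0.14 in AA 1 to 3. The match rests on a near tie, -0.328 in AA 1 and -0.333 in TP 2. Single markers departed from it, as S100a8 and S100a9 were lowest on AA 1. Nor was the order particular to neutrophil markers, since the inflammasome and IL-1 maturation genes described below share it. Elane, Ngp, Cxcr2, Fpr1 and Mmp8 were on no array well above background. Macrophage markers, 11 of 12 tested and all but Marco detected, ran from -0.53 to 0.43 in TP and from -0.44 to 0.27 in AA. They were lowest on the same 2 arrays, TP 2 and AA 2, as Il18. This was not particular to them: T and NK cell markers (-0.80 and -0.75) and synovial fibroblast markers (-0.54 and -0.42) were also lowest there. Endothelial markers, 9 of 9 tested, ran from -0.33 to 0.81 in TP and from -0.25 to -0.017 in AA. They were highest on TP 2, as were Il33 and Il1r1, and so were smooth muscle (2.74) and nerve (2.96) markers. The part of these cell types in the values was not tested.

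**Figure D3:**
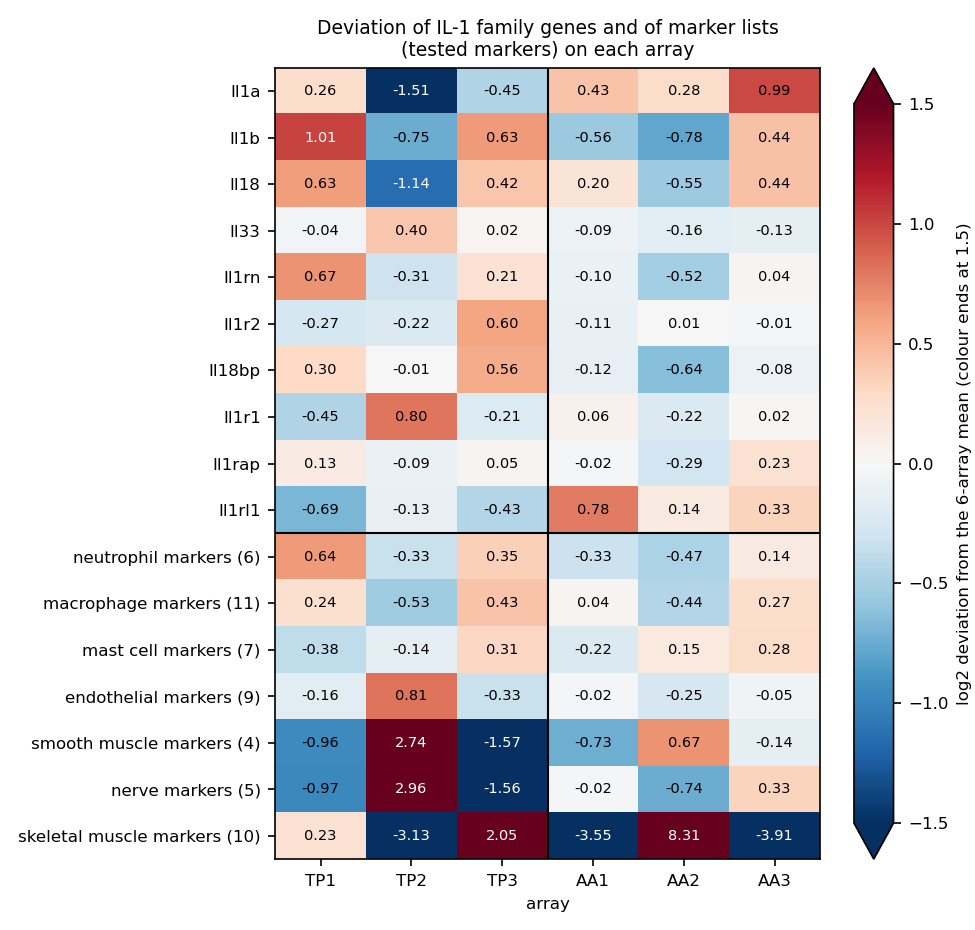
Log2 deviation from the 6-array mean for the 10 genes (upper block) and for the mean of each marker list (lower block, tested markers in brackets), with TP arrays left of AA arrays. Il1b, Il18 and Il1rn share high values on TP 1 and TP 3 and low ones on TP 2 and AA 2, whereas Il33 and Il1r1 peak on TP 2, and the muscle rows exceed the colour range.

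Because Il1b and Il1rn varied together, the 250 bases before the start of each were compared (RefSeq, build GRCr8; windows were found for 9 of the 10 genes, all but Il1r2). The searched motifs, on both strands, were TATAAA, the AP-1 motif TGANTCA and the NF-kB consensus. Capitals mark the matches. The windows are chr3:137036582-137036831 on the minus strand for Il1b and chr3:27520072-27520321 on the plus strand for Il1rn.
Il1b: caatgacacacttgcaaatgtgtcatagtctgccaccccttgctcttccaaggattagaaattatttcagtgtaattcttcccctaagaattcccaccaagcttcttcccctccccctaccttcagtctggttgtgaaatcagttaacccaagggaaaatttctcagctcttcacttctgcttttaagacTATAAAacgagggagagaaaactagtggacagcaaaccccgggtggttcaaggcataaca
Il1rn: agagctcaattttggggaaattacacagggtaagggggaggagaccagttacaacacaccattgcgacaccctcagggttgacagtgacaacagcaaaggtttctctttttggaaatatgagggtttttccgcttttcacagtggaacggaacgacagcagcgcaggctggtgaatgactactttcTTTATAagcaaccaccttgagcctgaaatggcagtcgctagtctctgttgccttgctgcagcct
Both hold TATAAA, at -60 to -55 on the sense strand of Il1b and at -64 to -59 on the opposite strand of Il1rn, a motif present in 12.9% of the 33469 promoter windows. Neither holds the AP-1 letters, found in 6.3% of windows, or the NF-kB consensus, also found in 6.3%. Matches are letters only and say nothing of binding.

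By pattern over the 6 arrays, the genes most like Il1b among 11749 compared were Stx11, Tut7, Cwf19l2, Naa15 and the complement gene C2, with Pearson r of 0.984 to 0.992. Those most like Il1rn were Rhbdf2, Cd82, Ero1a, Fcrla and Dram1 (0.995 to 0.998), and those most like Il33 were Tmem8b, Nkd2, Brap, Hdac9 and Tecpr2 (0.981 to 0.993). Over so few arrays many genes reach a high r: 3.98%, 5.75% and 2.27% of the compared genes passed 0.9 for Il1b, Il1rn and Il33.

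The wider pathway was read in 5 lists of 66 listed genes, of which 47 were tested. By limma, 0 of the 47 passed after adjustment, 3 had an unadjusted p under 0.05, 40 had a higher TP mean and 6 had non-overlapping groups, all with TP above. Over all 11755 tested genes, 2.98% had an unadjusted p under 0.05, 4.74% lay wholly above and 3.77% wholly below, 55.8% had a higher TP mean, and the median difference was 0.034. Genes of a list share their arrays and are not independent.

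Among the other ligands, Il1f10, which encodes IL-38, a family member described as an antagonist, stood at -1.20, -0.38 and -1.39 in TP 1 to 3, against -3.99, -3.37 and -2.03 in AA 1 to 3. The groups did not overlap and the difference of 2.14 (SE 0.54; limma unadjusted p = 0.00667, adjusted p = 0.994) was the larger of the 2 tested in that list. It was 1.71 to 2.69 with 1 array left out and 0.90 with normexp background correction. Il36b differed by 0.42 (SE 0.42) with overlap, at 0.12 without TP 3, 0.17 without AA 2 and 0.85 without TP 2, and Il36a and Il36rn were on no array well above background. Of the other receptors, Sigirr, a negative regulator of the family, differed by 0.27 (SE 0.24), or 0.056 without TP 2, and Il18rap, Il1rl2, Il1rapl1 and Il1rapl2 were on no array well above background.

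All 11 tested genes of the inflammasome and IL-1 maturation had a higher TP mean, with a median difference of 0.25, and none had non-overlapping groups. The median rested on single arrays, at 0.10 without TP 1, 0.15 without AA 2, 0.41 without AA 3 and 0.57 without TP 2. Casp1, the protease that matures IL-1 beta and IL-18, stood at 2.87, 1.45 and 2.31 in TP 1 to 3, against 1.92, 1.48 and 2.20 in AA 1 to 3, a difference of 0.34 (SE 0.39) that was 0.012 without TP 1. The sensor genes Nlrp3 and Nlrc4 differed by 0.42 (SE 0.33) and 0.64 (SE 0.37), the pyrin gene Mefv by 0.85 (SE 0.54) and the pore-forming Gsdmd by 0.25 (SE 0.18). Without TP 1, Nlrp3, Nlrc4 and Mefv differed by 0.19, 0.30 and 0.45, Gsdmd differed by 0.13 without AA 2, and Nlrp3 by 0.091 with normexp background correction. The list stood at 0.59, -0.40 and 0.31 in TP 1 to 3, against -0.071, -0.53 and 0.10 in AA 1 to 3, again lowest on TP 2 and AA 2.

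Of 14 tested genes of IL-1 receptor signalling, 12 had a higher TP mean, the median difference was 0.15, and Irak3, Tab2, Map3k3 and Chuk had non-overlapping groups, against 4.74% of all tested genes with TP wholly above. The median was 0.065 without AA 2 and 0.064 with normexp background correction. Irak3, which encodes IRAK-M, an inhibitor of the MyD88 complex, stood at -3.83, -3.82 and -3.74 in TP 1 to 3, against -4.96, -4.69 and -4.22 in AA 1 to 3. The difference of 0.83 (SE 0.22; limma unadjusted p = 0.00814, adjusted p = 0.994) came from a dim probe, well above background on all 3 TP arrays but on 1 AA array, and was 0.12 with normexp background correction. Map3k3 and Chuk, both kinases upstream of NF-kB, differed by 0.30 (SE 0.16) and 0.20 (SE 0.16), the ubiquitin ligase gene Peli1 by 0.30 (SE 0.21), and the adaptor Myd88 by 0.28 (SE 0.29). Without AA 2, Chuk and Myd88 differed by 0.097 and 0.063, and Peli1 differed by 0.12 without TP 1.

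Of 19 tested IL-1 response genes, 14 had a higher TP mean and the median difference was 0.27. That median turned to -0.18 without TP 1, and was 0.051 without AA 2, 0.70 without TP 2 and 0.072 with normexp background correction. Nfkbia, the feedback inhibitor of NF-kB, stood at 3.76, 3.43 and 3.52 in TP 1 to 3, against 2.84, 2.66 and 3.30 in AA 1 to 3, without overlap, and differed by 0.63 (SE 0.21; limma unadjusted p = 0.0243, adjusted p = 0.994). The adhesion molecule gene Icam1 differed by 0.68 (SE 0.33), the prostaglandin synthase gene Ptgs2 by 1.26 (SE 0.63), Il6 by 0.23 (SE 0.47) and the collagenase-activating protease gene Mmp3 by 0.48 (SE 1.00), all with overlap. Nos2 differed by 2.39 (SE 1.97), with 1.56 in TP 1 and -6.56 and -3.09 in TP 2 and 3, against -6.50, -4.63 and -4.14 in AA 1 to 3, and 0.27 without TP 1. Without TP 1, Icam1 was 0.44 and Ptgs2 0.70, and Ptgs2 was 0.13 with normexp background correction. These probes were dim: Nos2 and Il6 were each well above background on 2 TP and 2 AA arrays, and Ptgs2 on 2 TP and 1 AA array. The Nos2 values of TP 2 and AA 1 lay under the lowest well-above signal of their arrays, -5.51 and -6.15, so its difference has no exact size. The same holds for Ptgs2, whose AA 2 value of -5.83 lay under the lowest well-above signal of that array, -5.72.

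**Figure D4:**
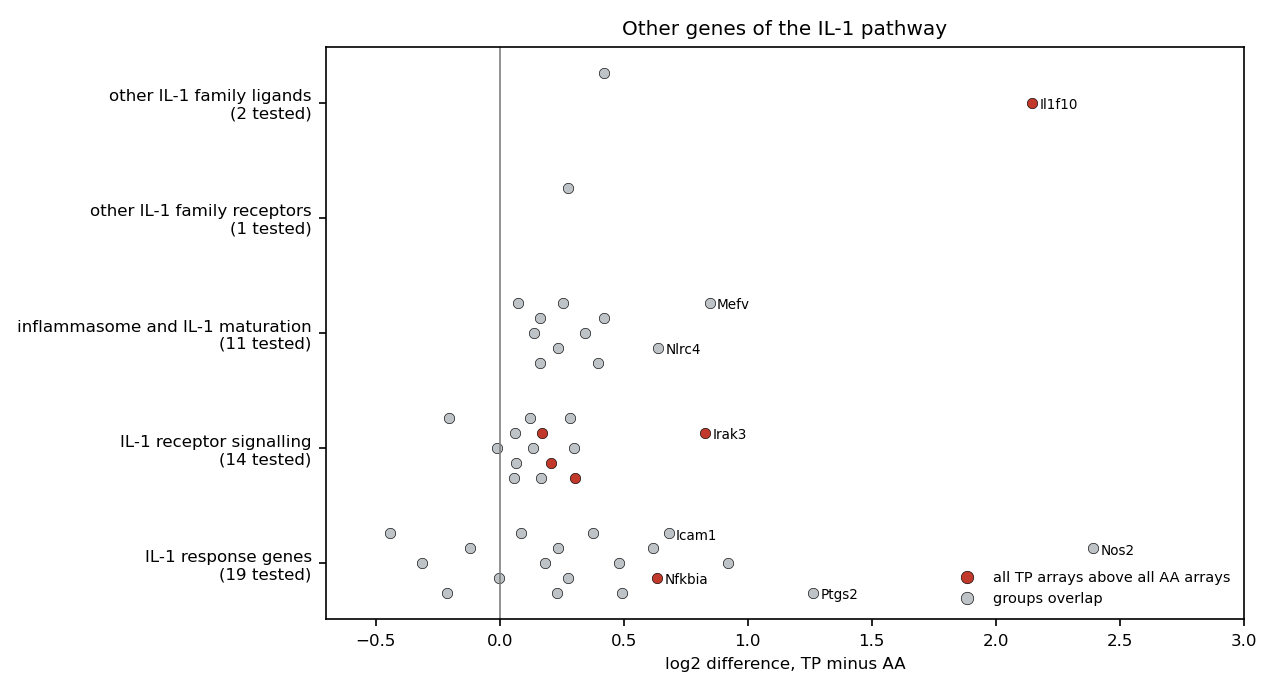
Log2 difference (TP minus AA) of each tested gene in the 5 pathway lists; red points are genes whose TP arrays all lie above all AA arrays, grey points overlap. Of 47 genes, 40 lie above 0 and 6 do not overlap, with Il1f10 at 2.14 and Nos2 at 2.39 farthest out.

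**Figure D5:**
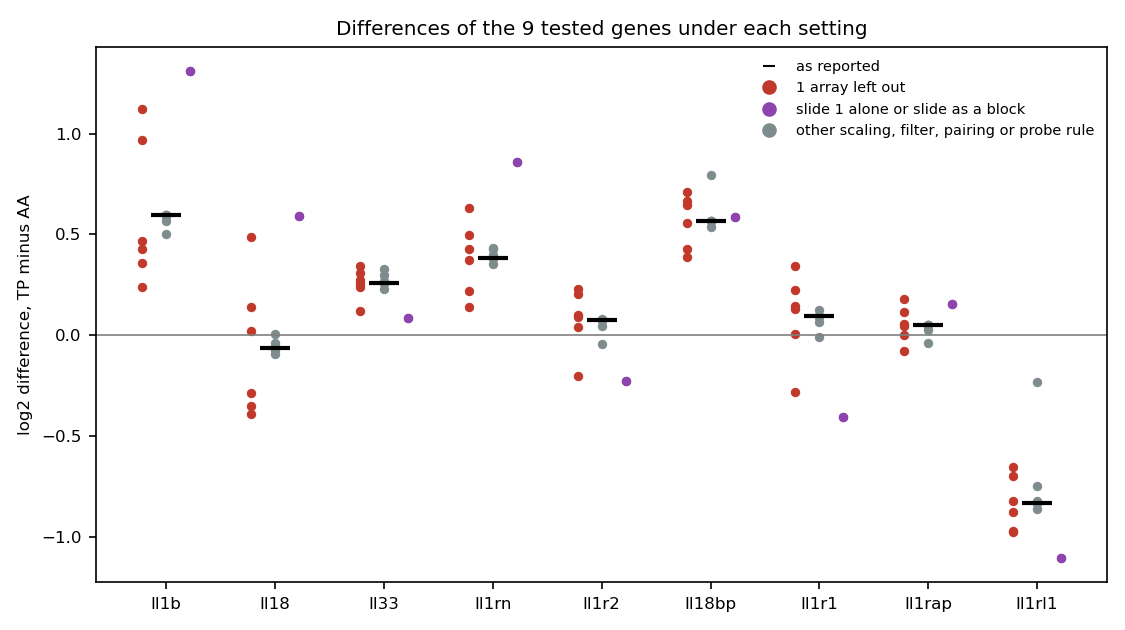
Log2 difference (TP minus AA) of the 9 tested genes as reported (black bars), with 1 array left out (red), with slide as a block or slide 1 alone (purple) and under the other scalings, filters and probe rules (grey). Il18bp stays between 0.39 and 0.79 and Il1rl1 below 0 throughout, whereas Il18, Il1r2, Il1r1 and Il1rap fall on both sides of 0.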

How the data were processed

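Expression was measured on 1-colour Agilent rat arrays hybridised with Cy3-labelled cRNA from 0.5 ug of RNA, per the labels. The deposited scanner files hold spot intensity, written per the file headers by Feature Extraction 10.7.3.1 (the submitters' processing notes name 9.1), background-subtracted and detrended within each array. The authors' deposited table of log2 values has 167 rows, none a probe of these 10 genes, so it gave no value. After removal of control spots and of outlier spots, each array's log2 75th percentile was subtracted from log2 intensity and copies of a probe were averaged. Probes well above background on at least 3 of 6 arrays were tested with limma 3.58.1 in R 4.3.3 (triptolide minus arthritis, no covariates), with Benjamini-Hochberg adjustment over all of them. A gene is given by its brightest probe, with its other probes beside it for the 10 members only. Genes of the pathway and marker lists are given by their brightest tested probe alone. This holds also where the array has more, as for Map3k3 (3 probes) and Ptgs2 (2 probes). Other gene names came from the RefSeq table of GRCr8, which matched 18028 probes by accession, 3169 by symbol and 402 by synonym. Every member is described, as are up to 4 genes of each pathway list with the smallest unadjusted p, besides Il6, Ptgs2, Mmp3, Casp1, Nlrp3 and Myd88, and the 5 genes most correlated with Il1b, Il1rn and Il33. The members and lists were chosen with earlier results of these data known. In simulated arrays of this contrast with 25783 probes, log2 changes of 1, 2 and 3 were called in 20.9%, 61.2% and 87.9% of cases, with 6 false calls. The simulated noise was independent for each probe and array. It lacked the slide and tissue shifts that probes share on the real arrays, so these rates need not hold for them. The number of arrays limits the precision.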

Additional observations from a re-analysis of the deposited data

How the results depend on the processing

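Under every alternative run, 0 of the tested member genes passed the adjusted threshold. Il1b, Il33, Il1rn and Il18bp were above 0 and Il1rl1 below 0 under each of them. The filter settings and the replicate block leave a difference unchanged by construction, so they could not turn a sign. The count of member genes with non-overlapping groups was 3 to 5 with 1 array left out, where 15.9% to 17.4% of all probes do not overlap, except 28% without TP 2, which gave the 5. With no filter on dim probes it was 4 of 10 genes, as Il1a then counted as wholly below, where 10.2% of all probes do not overlap. It was 8 within slide 1, where 52.6% of all probes do not overlap, and 6 with neither AA 2 nor TP 2, an alternative chosen after seeing the data, where 45.1% do not. Il18 turned positive with normexp (0.0043), within slide 1 and with slide as a block (0.59 each), without AA 1 (0.018), AA 3 (0.14) or TP 2 (0.49) and without AA 2 and TP 2 (0.20). Il1r2 turned negative with normexp (-0.046), within slide 1 and with slide as a block (-0.23 each) and without TP 3 (-0.20). Il1r1 did so with normexp (-0.0086), within slide 1 and with slide as a block (-0.40 each), without TP 2 (-0.28) and without AA 2 and TP 2 (-0.37). Il1rap did so with normexp (-0.037), without AA 2 (-0.080) and without AA 2 and TP 2 (-0.020). Il6 did so with normexp (-0.094) and without AA 2 (-0.011) or TP 1 (-0.25), Mmp3 without AA 2 (-0.25) or TP 1 (-0.34), and Sigirr without AA 2 and TP 2 (-0.067). With 1 array left out, Il18 ranged from -0.39 to 0.49, Il1r2 from -0.20 to 0.23, Il1r1 from -0.28 to 0.34, Il1rap from -0.080 to 0.18, Il6 from -0.25 to 0.55, Mmp3 from -0.34 to 1.39 and Sigirr up to 0.41. The cause of these turns was not tested. No value could come from the authors' deposited table, which lists no probe of these genes.

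Over all probes, 835 had an unadjusted p under 0.05, against 1758 with no filter on dim probes, 1297 within slide 1, 1657 without TP 2 and 2879 without AA 2 and TP 2, where 24 probes, none of a member, passed after adjustment by limma. The labels do not say whether replicate numbers pair the arrays, and the values do not settle it. Same-numbered arrays deviated together at r = -0.165, -0.131 and 0.001, and no TP array correlated best with its own number. With the number as a block, the SE fell from 0.52 to 0.25 for Il18 and from 0.54 to 0.37 for Il1b. It rose from 0.24 to 0.28 for Il1rl1. The differences with that block, -0.83 for Il1rl1 and 0.57 for Il18bp, equal those without it by construction, because each number holds 1 TP and 1 AA array. They are therefore no check of the values, and no call changed. Signal near background limits Il1a, Il1rl1 variant 2, Irak3, Nos2, Il6 and Ptgs2.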
